A study of Mus musculus with 6 samples.

Results

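The genes described here are 10 that write, maintain or remove DNA methylation or that encode the histone methyltransferases Ezh1 and Ezh2, chosen by name among the 55487 gene identifiers of the count table. They are Dnmt1, Uhrf1, Hells, Dnmt3a, Dnmt3b, Tet1, Tet2, Tet3, Ezh1 and Ezh2, and each matched 1 identifier. RNA was sequenced from 6 cultures of CD31-enriched primary skin cells of C57BL/6 mice, which the labels call endothelial. The medium held 5 mmol/L glucose for 3 cultures (normal glucose) and 20 mmol/L for the other 3 (high glucose) over 48 hours, and the high glucose condition was meant to mimic hyperglycemia in diabetes. An isolation pooled the skin of 4 to 6 mice aged 2 to 3 months, and the labels do not say whether the replicates came from separate isolations. The study counts its sequenced replicates as mice per group, without tying each culture to its animals. P values measure the spread between these samples, which may be technical.

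Library totals ranged between 120192466 and 146881356, so that 3 counts corresponded to at most 0.0258 counts per 1000000 of the library (CPM). All 10 genes passed the filter on low counts, and the lowest count of any of them in any sample was 140. The labelled cell type was checked against its markers. Of 15 endothelial marker genes, 4 (Tie1, Emcn, Cldn5 and Robo4) had too few counts to be tested, and Pecam1, which encodes CD31, averaged 0.128 CPM under normal and 0.103 CPM under high glucose. The summed level of 15 fibroblast markers lay between 45046 and 48542 CPM in normal glucose and between 79528 and 84191 CPM in high glucose. For the endothelial markers it was 220 to 248 and 200 to 206 CPM. Most of that endothelial sum came from Eng, at 155 and 140 CPM, and Flt1, at 55.3 and 38.4 CPM. Cdh5 averaged 1.80 and 0.876 CPM. The cultures therefore hold little RNA of several defining endothelial genes, and fibroblast marker RNA moved with the treatment. Its part in the results below was not tested. In bulk RNA, fewer cells of a type and less RNA per cell cannot be told apart.

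DNA methylation in mammals is placed mostly on cytosines followed by guanine (CpG). Dnmt3a and Dnmt3b methylate unmodified sites de novo, whereas Dnmt1 copies the pattern onto the new strand after replication. Uhrf1 recognizes CpG sites methylated on a single strand and recruits Dnmt1, and Hells, a chromatin remodeler also called Lsh, opens nucleosomal DNA for methylation. The Tet enzymes oxidize methylcytosine, a first step in its removal. Ezh1 and Ezh2 are alternative catalytic subunits of Polycomb repressive complex 2 (PRC2), which methylates lysine 27 of histone H3. In dividing cells Ezh2 is usually the prominent form, and Ezh1 is known for its expression in resting and differentiated cells.

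High glucose was compared with normal glucose to ask which of these genes changed. Uhrf1 and Hells fell, whereas Dnmt3a, Dnmt3b, Tet1, Tet2, Tet3 and Ezh1 rose, and Dnmt1 and Ezh2 did not pass the test. Thus 2 of the 10 genes were called lower and 6 higher when the quasi-likelihood test of edgeR was cut at an adjusted P value of 0.05. Over all 19015 tested genes, 14.5% were called lower and 16.9% higher. In the same 8 genes the samples of the 2 groups did not overlap. Among all tested genes, 21.3% lay in every high glucose sample below every normal glucose sample and 25.1% above. The median log2 fold change was 0.29 for the 10 genes and 0.0062 for all tested genes. The 10 genes were chosen with earlier results of these data known, so this comparison describes them and is not a test.

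**Figure D1:**
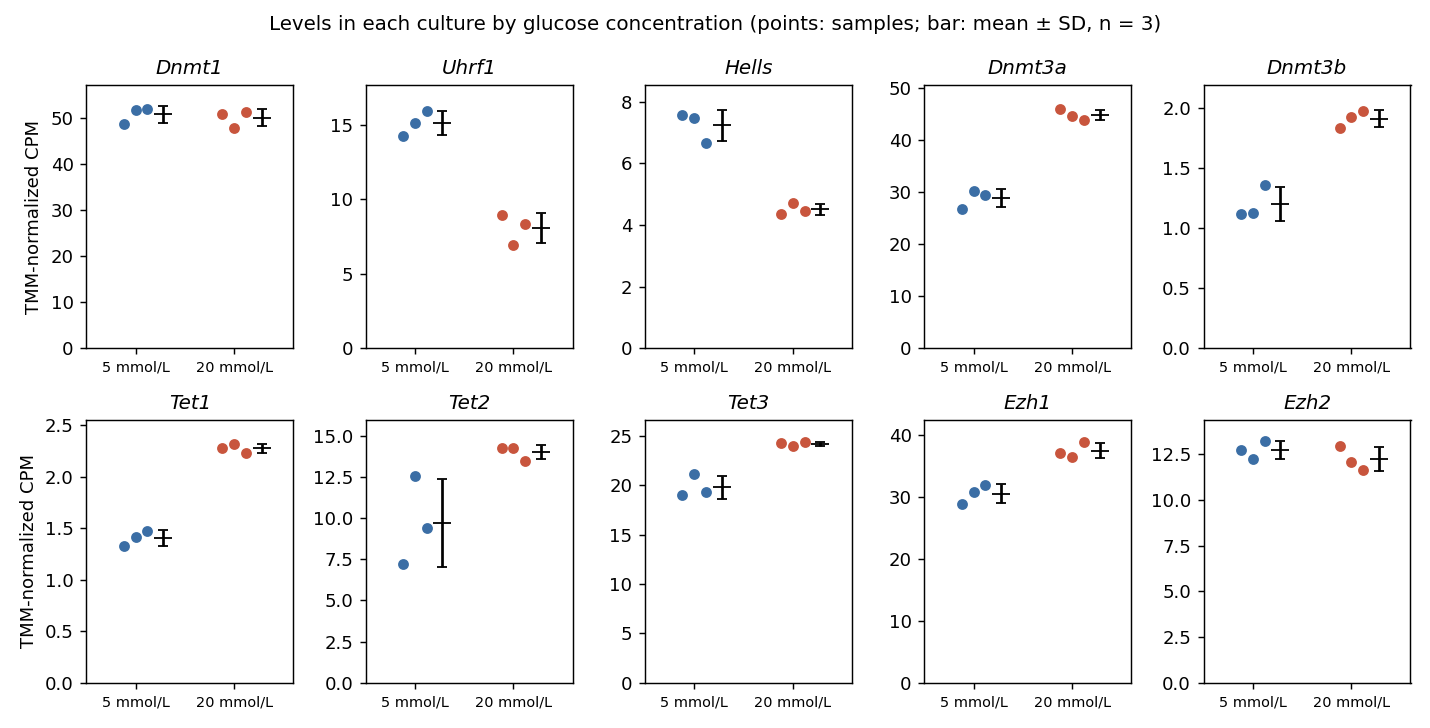
TMM-normalized CPM of each of the 10 genes in the 3 cultures at 5 mmol/L (blue) and the 3 at 20 mmol/L glucose (red), with the mean and SD beside the points and each axis starting at 0. Uhrf1 and Hells sit lower in every high glucose sample, Dnmt3a, Dnmt3b, Tet1, Tet2, Tet3 and Ezh1 sit higher, and the points of Dnmt1 and Ezh2 overlap between the groups.

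The maintenance genes came apart. Uhrf1 (ENSMUSG00000001228, chromosome 17 of GRCm38 from 56303321 to 56323486) had 14.3, 15.1 and 15.9 TMM-normalized CPM in normal glucose replicates 1 to 3, and 8.94, 6.95 and 8.32 CPM in high glucose. No high glucose sample came near the lowest normal glucose sample. Its log2 fold change was -0.90 (standard error 0.0947, edgeR adjusted P = 5.3e-05), a change of -46.5%, from between 808 and 2146 counts per sample. Hells (ENSMUSG00000025001, chromosome 19 from 38930915 to 38971051) had 7.57, 7.49 and 6.65 CPM under normal glucose against 4.36, 4.72 and 4.45 CPM under high glucose. The high glucose samples were close together and all lay below the normal glucose samples. The log2 fold change of Hells was -0.68 (standard error 0.0867, edgeR adjusted P = 2.0e-04), a change of -37.7%.

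Dnmt1, the methyltransferase that Uhrf1 recruits, did not follow them. This gene (ENSMUSG00000004099, chromosome 9 from 20907209 to 20959888) had 48.7, 51.9 and 52.1 CPM under normal glucose against 51.0, 48.0 and 51.4 CPM under high glucose, and the groups overlapped. Its log2 fold change was -0.022, with a 95% interval from -0.14 to 0.098 (edgeR adjusted P = 0.794). With the GC content and transcript length trends of the libraries removed, it was -0.14 and passed the threshold (edgeR adjusted P = 0.0166).

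Promoter sequence was read from RefSeq windows of GRCm38.p6, which gave 15 annotated start sites for the 10 genes. In the 250 bases before each start, 5 kinds of element were searched on both strands. These were the E2F words TTTCCCGC, TTTCGCGC, TTTGCCGC and TTTGGCGC, the palindromic NRF1 motif, the CCAAT box, the CHR element TTTGAA and the E-box CACGTG. E2F factors are known for activating replication genes as cells enter S phase. An E2F word stood at 3 of the 15 starts, 1 each of Uhrf1, Hells and Dnmt1, and at none of the other 7 genes. It is present in 1.86% of all 32851 RefSeq windows of this length. Each E2F word contains a CpG, and those windows were not matched to the 15 for CpG content. The CCAAT box stood at 6 of the 15 starts, the CHR element at 2, the E-box at 1 (a Dnmt3a start) and the NRF1 motif at 0, and they occur in 33.8%, 16.0%, 6.02% and 0.782% of all windows. The 3 windows are shown because they set the 2 maintenance genes that fell beside the 1 that did not, with the E2F word in capitals.
Uhrf1, chr17:56304063-56304312, plus strand: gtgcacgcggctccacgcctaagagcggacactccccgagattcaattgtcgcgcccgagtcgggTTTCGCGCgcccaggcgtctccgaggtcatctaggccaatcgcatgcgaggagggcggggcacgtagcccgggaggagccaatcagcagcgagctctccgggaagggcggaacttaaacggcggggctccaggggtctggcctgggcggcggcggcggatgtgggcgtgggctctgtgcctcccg
Hells, chr19:38930740-38930989, plus strand: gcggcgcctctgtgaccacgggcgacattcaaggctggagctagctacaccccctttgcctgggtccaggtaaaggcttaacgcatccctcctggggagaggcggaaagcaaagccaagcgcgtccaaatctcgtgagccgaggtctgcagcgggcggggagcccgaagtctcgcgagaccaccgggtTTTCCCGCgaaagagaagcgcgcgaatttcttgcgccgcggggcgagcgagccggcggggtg
Dnmt1, chr9:20952624-20952873, minus strand: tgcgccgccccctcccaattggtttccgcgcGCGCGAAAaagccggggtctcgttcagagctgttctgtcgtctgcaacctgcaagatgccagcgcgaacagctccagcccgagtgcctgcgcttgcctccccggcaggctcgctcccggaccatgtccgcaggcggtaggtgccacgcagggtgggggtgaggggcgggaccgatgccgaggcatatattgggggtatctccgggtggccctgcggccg

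The word begins 185 bases before the start in Uhrf1, 62 bases before it in Hells and 219 bases before it in Dnmt1, where it is in the opposite orientation. The presence of the word did not separate the genes that fell from Dnmt1. The same 3 windows held 30, 28 and 26 CpG sites, where the median of all windows was 6. The most upstream Dnmt3a start had 38 CpG sites, the next Dnmt3a start 40 and the Tet2 start 51. The bases after the most upstream Dnmt3a start, unlike those after every other start, were not found in an annotated transcript of the gene. A match is a description of the letters and not evidence of binding, and CpG methylation itself was not measured.

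Both de novo methyltransferases rose. Dnmt3a (ENSMUSG00000020661, chromosome 12 from 3806007 to 3914443) had 26.8, 30.3 and 29.3 CPM under normal glucose against 45.9, 44.6 and 43.8 CPM under high glucose. The spread within each group was small against the gap between them. Its log2 fold change was 0.64 (standard error 0.0585, edgeR adjusted P = 2.1e-05), a rise of 55.4%. Dnmt3b (ENSMUSG00000027478, chromosome 2 from 153649450 to 153687730) had 1.12, 1.12 and 1.36 CPM under normal glucose against 1.83, 1.93 and 1.97 CPM under high glucose. Every high glucose sample exceeded every normal glucose sample, and the log2 fold change was 0.67 (standard error 0.123, edgeR adjusted P = 0.0021). Dnmt3l, which encodes a catalytically inactive partner of both enzymes, averaged 7.24 and 7.73 CPM and had a log2 fold change of 0.095 (edgeR adjusted P = 0.573). An antisense transcript that shares 133 exonic bases with Dnmt3a, Dnmt3aos, had at most 4 counts in any sample.

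All 3 Tet genes were called higher, with unequal firmness. Tet1 (ENSMUSG00000047146, chromosome 10 from 62804570 to 62908996) had 1.33, 1.42 and 1.48 CPM under normal glucose against 2.28, 2.31 and 2.23 CPM under high glucose. No sample of either group came near the other group. The log2 fold change was 0.69 (standard error 0.105, edgeR adjusted P = 6.5e-04). Tet3 (ENSMUSG00000034832, chromosome 6 from 83362373 to 83459084) had 19.0, 21.1 and 19.3 CPM under normal glucose against 24.2, 24.0 and 24.4 CPM under high glucose. The groups did not overlap, and the log2 fold change was 0.29 (standard error 0.0575, edgeR adjusted P = 0.0036). 

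Tet2 (ENSMUSG00000040943, chromosome 3 from 133463679 to 133545139) varied more than the other 9 genes in normal glucose, with 7.23, 12.5 and 9.41 CPM. The high glucose samples, at 14.2, 14.2 and 13.5 CPM, were tightly grouped and above all of these. The log2 fold change was 0.52 with a standard error of 0.156 (edgeR adjusted P = 0.0278). Without normal glucose replicate 1, the lowest sample, it was 0.33, and without normal glucose replicate 2, the highest, it was 0.74. Tet2 kept an adjusted P value under 0.05 in 2 of the 6 fits that left out 1 sample, and the largest of these P values was 0.102.

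The Tet genes and Dnmt3a have long transcripts, and fold changes moved with length across all genes. The longest annotated transcripts of Tet1, Tet2, Tet3 and Dnmt3a have 14369, 9179, 10904 and 9685 bases. Among the 569 tested genes with a transcript of at least 9000 bases, a limit chosen after the values were seen, 43.9% were called higher and 8.26% lower, with a median log2 fold change of 0.22. Of the 18412 shorter genes, 16.1% were called higher. After the trend on GC content and length was removed, the log2 fold changes of Dnmt3a, Tet1 and Tet2 were 0.42, 0.47 and 0.37 and still passed the threshold (edgeR adjusted P = 2.3e-05, 0.0055 and 0.0344). That of Tet3 was 0.050 and did not (edgeR adjusted P = 0.493). Dnmt3b and Ezh1, with transcripts of 4320 and 4207 bases, had values of 0.61 and 0.25 in that fit, against 0.67 and 0.30 without it. Uhrf1 and Hells kept their falls, at -0.94 and -0.71.

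**Figure D2:**
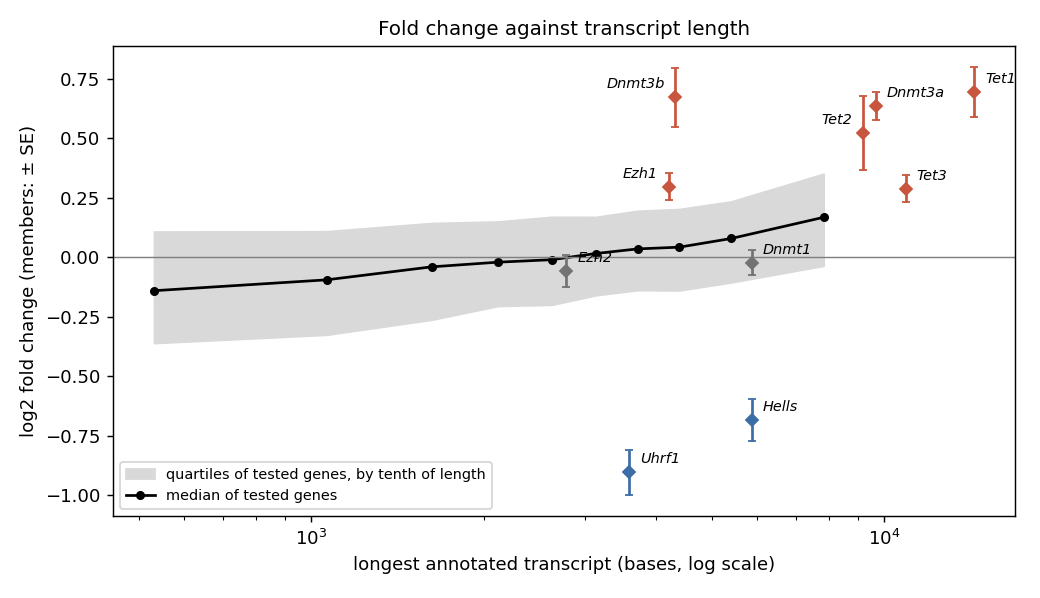
Log2 fold change of the 10 genes (diamonds, with standard error) against the longest annotated transcript in bases on a log scale, over the median (black line) and quartiles (gray) of tested genes in 10 bins of length. The median went from -0.14 in the shortest bin to 0.17 in the longest. Tet1, Tet2, Tet3 and Dnmt3a stand to the right of the midpoint of the longest bin, and Tet3 alone among them is under that bin's upper quartile of 0.35. Dnmt3b and Ezh1 lie above the gray band and Uhrf1 and Hells below it.

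The catalytic subunits of PRC2 differed from each other. Ezh1 (ENSMUSG00000006920, chromosome 11 from 101191115 to 101226463) had 28.9, 30.8 and 31.9 CPM under normal glucose against 37.2, 36.5 and 38.8 CPM under high glucose, without overlap. Its log2 fold change was 0.30 (standard error 0.0563, edgeR adjusted P = 0.0027). Ezh2 (ENSMUSG00000029687, chromosome 6 from 47530139 to 47595341) had 12.7, 12.2 and 13.2 CPM under normal glucose against 12.9, 12.1 and 11.6 CPM under high glucose, and the groups overlapped. Its log2 fold change was -0.058, with a 95% interval from -0.21 to 0.094 (edgeR adjusted P = 0.557).

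A ratio of 2 genes within a library is free of the scaling between libraries. Per kilobase of exon, Ezh2 stood at 0.490, 0.443 and 0.461 of the level of Ezh1 in normal glucose and at 0.388, 0.368 and 0.334 in high glucose. The ratio was lower in 3 of 3 high glucose samples, with a log2 difference of -0.36. The two-sided exact permutation P value was 0.1, and 3 samples against 3 allow none smaller. Dnmt1 stood at 4.09, 3.87 and 4.00 times the level of Dnmt3a in normal glucose and at 2.51, 2.42 and 2.64 times in high glucose. This ratio, of the maintenance enzyme to the more abundant de novo enzyme, changed by -0.66 on the log2 scale (exact permutation P = 0.1, again the smallest possible). In both ratios the samples of the 2 groups did not overlap. The ratios themselves depend on the length used as divisor, whereas the log2 differences do not. The trend of fold change on GC content and length does not cancel in a ratio. With that trend removed, the log2 fold changes were -0.14 for Dnmt1 and 0.42 for Dnmt3a, and -0.018 for Ezh2 and 0.25 for Ezh1. Without its removal they were -0.022 and 0.64, and -0.058 and 0.30. By the longest transcript, Ezh2 to Ezh1 lay between 0.600 and 0.663 in normal and between 0.452 and 0.525 in high glucose. Dnmt1 to Dnmt3a lay between 2.83 and 2.99 and between 1.77 and 1.93.

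Scaled by exon length, Dnmt1 had the highest level of the 10 genes in both groups, at 6.90 ± 0.257 CPM per kilobase (SD, n = 3) at the lower and 6.79 ± 0.250 at the higher concentration. In normal glucose Ezh1, Uhrf1, Ezh2, Dnmt3a, Tet3, Hells, Tet2, Dnmt3b and Tet1 followed in that order, and no neighbors overlapped. Uhrf1 stood at 3.55 ± 0.192 CPM per kilobase, and Tet1 was lowest at 0.0910 ± 0.00490. In high glucose Dnmt3a, at 2.69 ± 0.0623, stood above Uhrf1, at 1.90 ± 0.239, and the ranges of Uhrf1 and Ezh2 overlapped. Tet2 also stood above Hells. The order depends on the length used: with the longest transcript in place of all exons, Ezh2 stood above Uhrf1 in normal glucose with overlapping ranges, and in high glucose Ezh1 ranked first, at 8.92 CPM per kilobase against 8.54 for Dnmt1, with overlapping ranges. On that length Uhrf1 stood at 2.25 and Ezh2 at 4.38 CPM per kilobase in high glucose, and their ranges did not overlap.

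**Figure D3:**
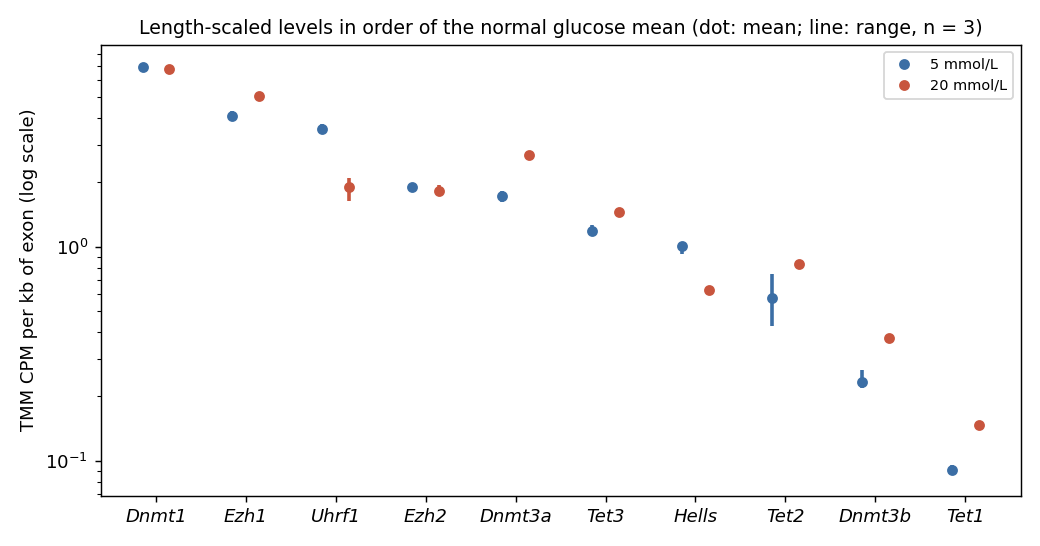
Level of each gene in TMM-normalized CPM per kilobase of exon, on a log scale, in order of the normal glucose mean, with the mean (dot) and range (line) of the 3 samples at 5 mmol/L (blue) and at 20 mmol/L (red). By this length Dnmt1 is highest and Tet1 lowest in both groups, and Uhrf1 and Ezh2 overlap in high glucose. By the longest transcript Uhrf1 lies below Ezh2 there without overlap.

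Uhrf1 and Hells are counted among S phase genes in the Seurat package. The 10 genes were therefore set beside 43 other genes drawn from its S phase lists and 54 from its G2/M lists. Of the S phase genes, 31 were called lower and 2 higher, with a median log2 fold change of -0.52. Over all tested genes 14.5% were called lower and 16.9% higher. Rrm2, a subunit of ribonucleotide reductase, had a log2 fold change of -1.21 and Ccne2 (cyclin E2) one of -1.19, whereas Polr1b, a subunit of RNA polymerase I, rose by 0.28. Of the G2/M genes, 47 were called lower and 1 higher, with a median of -1.03. Cdc25c, Ccnb2 and Birc5 had log2 fold changes of -1.46, -1.43 and -1.36, and Ctcf one of 0.21. The mean log2 CPM of the S phase genes was 3.34, 3.30 and 3.30 under normal glucose against 2.79, 2.86 and 2.82 under high glucose. Replication genes therefore moved with the treatment, and their part in the changes of the 10 genes was not tested.

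Set against the S phase mean of the same library, Uhrf1 was 0.49, 0.62 and 0.69 above it on the log2 scale in normal glucose and at 0.37, -0.058 and 0.24 in high glucose. The group difference was -0.42 on the log2 scale, lower in 3 of 3 samples (exact permutation P = 0.1, two-sided, again the smallest possible). Set against the G2/M mean instead, it was -0.067 and the groups overlapped (exact permutation P = 0.7), and the difference of Hells, described next, was 0.16. Hells lay at -0.42, -0.39 and -0.56 in normal glucose and at -0.66, -0.61 and -0.66 in high glucose, a difference of -0.19 between the groups. The other 8 genes were higher relative to the S phase genes in every high glucose sample. The S phase mean itself changed by -0.49, so a gene of unchanged level stands about that much higher on this scale. How many of all tested genes do so was not counted. Dnmt1 and Ezh2, which did not pass the test on their own levels, stood 0.47 and 0.43 higher on this scale, and Dnmt3a, Dnmt3b, Tet1 and Tet2 between 1.05 and 1.18 higher. Each has the same exact permutation P value of 0.1.

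**Figure D4:**
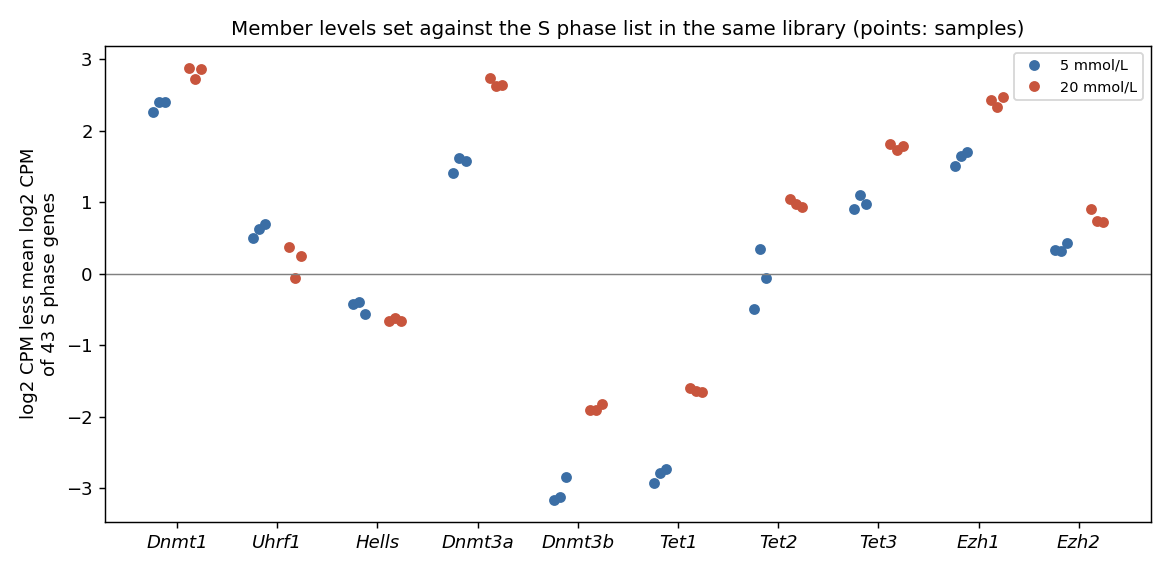
Log2 CPM of each gene less the mean log2 CPM of 43 S phase genes in the same library, for the 3 samples at 5 mmol/L (blue) and the 3 at 20 mmol/L glucose (red). Uhrf1 and Hells lie lower in high glucose than in normal glucose, and the other 8 genes lie higher in each sample. The S phase mean itself was lower in high glucose, which raises a gene of unchanged level on this scale.

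Partners of the methyltransferases moved in both directions. Of 16 tested cofactors and related factors, 4 were called lower and 5 higher, with a median log2 fold change of 0.074. Of all tested genes, 14.5% were called lower and 16.9% higher. Pclaf, which binds the replication clamp and is known as a partner in Uhrf1-dependent maintenance, went from 14.2 ± 1.82 to 5.92 ± 0.282 CPM (SD, n = 3), which is -1.26 on the log2 scale. Cdca7l and the DNA ligase gene Lig1 had log2 fold changes of -0.69 and -0.49. In contrast Uhrf2, the paralog of Uhrf1, rose from 176 ± 1.33 to 244 ± 3.08 CPM (log2 fold change 0.47, edgeR adjusted P = 3.5e-05). The histone methyltransferase genes Ehmt1 and Nsd1 were higher by 0.36 and 0.28 on that scale. In this list 2 genes, Pcna and Cdca7, also belong to the S phase list.

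Among 16 genes for the later steps of demethylation and for base repair, 5 were called higher and 1 lower, with a median log2 fold change of 0.10. Gadd45b and Gadd45g, stress-induced genes that have been linked to active demethylation, rose from 25.6 ± 1.76 to 39.0 ± 1.65 CPM and from 76.2 ± 8.77 to 109 ± 3.30 CPM (SD, n = 3). Mbd4, a glycosylase that removes thymine at mismatched CpG sites, rose by 0.38 on the log2 scale. Cxxc4, whose product binds Tet2, fell from 0.922 ± 0.0460 to 0.476 ± 0.112 CPM. Tdg, the glycosylase that excises oxidized methylcytosine, averaged 6.39 and 6.76 CPM and did not pass the test (edgeR adjusted P = 0.482). Of 9 readers of methylated CpG, 2 were called higher and 7 did not pass. Beside the counts of these lists, 16.9% of all tested genes were called higher and 14.5% lower. Zbtb4, a zinc finger reader, rose with a log2 fold change of 0.19.

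Of the 11 remaining PRC2 subunits, 3 were called lower and 1 higher, with a median log2 fold change of -0.081. Phf19, an accessory subunit that brings PRC2 to chromatin, went from 4.98 ± 0.206 to 2.78 ± 0.182 CPM (SD, n = 3; log2 fold change -0.84, edgeR adjusted P = 7.2e-05). Phf1 and Rbbp7 each had a log2 fold change of -0.19. Jarid2, which also recruits PRC2, rose by 0.38. The core partners Eed and Suz12 had log2 fold changes of -0.17 and -0.078 and did not pass. Of the 2 demethylases of the PRC2 mark, Kdm6a rose by 0.40, and Kdm6b, at 0.21, did not pass (edgeR adjusted P = 0.0651). In the companion complex PRC1, 5 of 19 genes were called higher, and Yaf2 was the 1 called lower. Cbx7, Cbx2 and Phc3 led the rises at 0.48, 0.40 and 0.40 on the log2 scale. Among all tested genes 16.9% were called higher and 14.5% lower, and the PRC2 and PRC1 lists are small. Whether their counts differ from those shares was not tested.

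**Figure D5:**
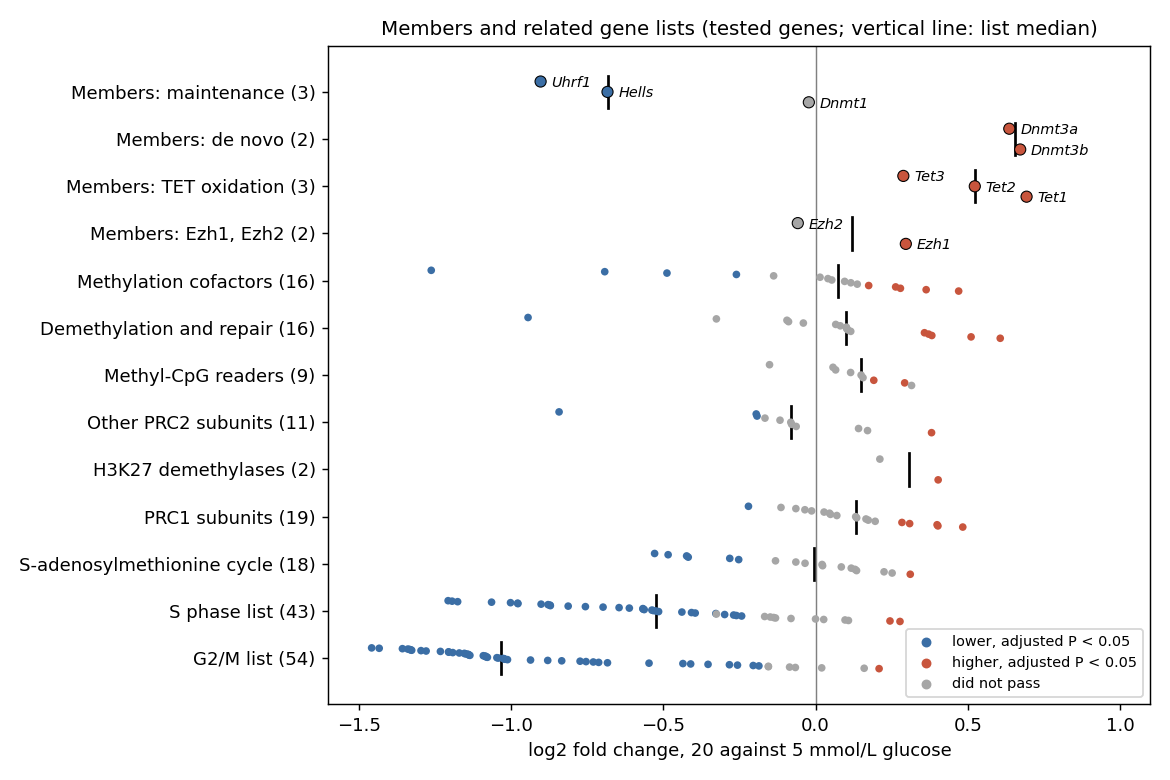
Log2 fold changes of the tested genes in each list, with the number tested in parentheses, genes called lower in blue and higher in red, gray for those that did not pass, and a line at the list median. The de novo and Tet genes lie to the right of 0, Uhrf1 and Hells lie to the left, within the range of the S phase genes, both H3K27 demethylases lie to the right, and the remaining lists hold genes on both sides.

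Genes of the cycle that makes S-adenosylmethionine, the methyl donor, had 6 of 18 tested members called lower and 1 higher. Those calls took in 14.5% and 16.9% of all tested genes. The folate enzymes Shmt1 and Mthfd2 had log2 fold changes of -0.48 and -0.42, and methionine synthase (Mtr) rose by 0.31. Mat2a, which encodes the main donor-making enzyme outside the liver, averaged 116 and 113 CPM and did not pass (edgeR adjusted P = 0.679). The median of this list was -0.0066.

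A list of 20 germline genes whose promoters are known to be silenced by DNA methylation in body cells was examined, with methylation itself unmeasured. Of these, 3 (Tex101, Asz1 and Hormad1) had 0 counts in all 6 samples, and 9 in all had too few counts for a test. A count of 0 allows up to 0.0258 CPM in high glucose replicate 2, where this floor is highest. Among the 11 tested genes, Sycp1 rose by 0.78 on the log2 scale, from counts of 51, 91 and 89 to 158, 115 and 121. Piwil2 had a log2 fold change of -0.35, and the other 9 did not pass. The median log2 fold change of the 11 tested genes was -0.35. Of 3 cyclin-dependent kinase inhibitor genes known as Polycomb targets, Cdkn2a had a log2 fold change of -0.40, and Cdkn2b and Cdkn1c rose by 0.22 and 0.83.

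The scaling between libraries bears on these counts. Scaling by library size alone shifted the median of all genes by -0.115 and raised the share of calls that were lower from 46.2% to 72.9%. Under that scaling 25.7% of genes were called lower and 9.57% higher. Uhrf1, Hells, Dnmt3a, Dnmt3b, Tet1, Tet3 and Ezh1 kept their calls, at log2 fold changes of -1.02, -0.80, 0.52, 0.56, 0.58, 0.17 and 0.18. Tet2, at 0.41, did not (edgeR adjusted P = 0.0749). Dnmt1 and Ezh2 were at -0.14 and -0.17 and did not pass.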

How the data were processed

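Read counts per gene were analysed for 6 samples. Trimming was done by the authors in Trimmomatic, alignment to GRCm38 (mm10) in HISAT2 and counting in StringTie. The deposited values are raw counts. Tool versions, gene annotation and strand setting are not given in the sources used here. Symbols, positions and lengths came from GENCODE M21 for GRCm38 and promoters from RefSeq (GRCm38.p6).

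Counts were filtered with filterByExpr (minimum count 10), which kept 19015 genes, normalized with TMM and compared with the quasi-likelihood test in edgeR 4.0.16 (R 4.3.3), with Benjamini-Hochberg adjustment over all tested genes and a threshold of 0.05. Total counts lay between 120192466 and 146881356. Standard errors were taken from the test statistic. Levels of genes outside the filter use the same scaling. The 95% intervals came from the quasi-likelihood test and include the spread between samples. Floors for low counts cover counting error only.

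The 10 genes and all gene lists were chosen with earlier results of these data known. Named beside the 10 genes were up to 3 called genes with the largest changes in each direction of a list, members of lists of 3 or fewer, and the 3 genes most alike Uhrf1. Tdg, Eed, Suz12, Mat2a, Dnmt3l, Pcna and Cdca7 were added after their values were seen. Some genes that this rule names are not reported here. The alternatives were DESeq2 1.42.0, other edgeR tests, scalings, filters and thresholds, counts divided by 2, removal of the trend on GC content and length (mgcv 1.9-3), the replicate block and each sample left out.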

Additional observations from a re-analysis of the deposited data

How the results depend on the processing

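In 18 alternative fits, Uhrf1, Hells, Dnmt3a, Dnmt3b, Tet1 and Ezh1 kept their direction and an adjusted P value under 0.05. Their log2 fold changes ranged from -1.02 to -0.82, -0.80 to -0.67, 0.42 to 0.66, 0.56 to 0.76, 0.47 to 0.72 and 0.18 to 0.32. Ezh2 passed in none (-0.17 to -0.018). Dnmt1 passed in 2 and Tet3 failed in 2, those with the GC content and length trend removed. Tet2 failed in 7, with adjusted P values up to 0.102 from edgeR. Without a filter on low counts and with robust fitting it had adjusted P values of 0.0885 and 0.0518. The cause was not tested. No gene reached an absolute log2 fold change of 1 in the comparison, so that minimum left 0 lower and 0 higher. Leaving out 1 sample left 2 lower genes and 5 to 6 higher.

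Deviations of same-numbered samples correlated at -0.025, 0.0038 and 0.013, so no shared deviation was seen. These values cannot show whether the cultures were paired, and the labels do not say. With the replicate block 2 genes were lower and 6 higher, as without it. With the G2/M list in place of the S phase list, the relative change of Hells reversed to 0.16. The standard error was largest for Tet2, at 0.156. Dnmt3b and Tet1 had the fewest counts, from 140 to 323 per sample.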

Other observations

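Over the 6 samples, the tested genes whose log2 CPM correlated best with that of Uhrf1 were Galnt12, Cyp27a1 and Ttc8, at Pearson correlations of 0.998, 0.997 and 0.997. These values are a description, since the difference between the groups sets most of each correlation and 764 genes exceeded 0.95. Their log2 fold changes were -0.30, -0.94 and -0.15.

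Markers of other cell types gave the following counts, beside 16.9% of all tested genes called higher and 14.5% called lower. Of the fibroblast markers, 13 of 15 were called higher and 1 lower, and of 9 pericyte and smooth muscle markers 1 was called higher and 5 lower. Of 9 leukocyte markers 5 passed the filter, with 1 higher and 2 lower, and Cd3e had 0 counts in every sample. Of 9 keratinocyte markers 3 passed the filter, with 1 higher. Of the 11 endothelial markers tested, 3 were called lower and 3 higher.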
